A study of Mus musculus with 24 samples.

Results

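The classical monocyte genes Ly6c1, Plac8, Thbs1, Slpi, Slfn4, Slfn1 and Klra2 were followed through mononuclear phagocyte subsets sorted from mouse muscle. They are 7 of 19057 genes with a named probe, and 8 of 45281 probes on the array carry their symbols, 2 for Klra2 and 1 for each of the other 6. They were picked because their signal on day 4 after injury was highest in the Ly6C high cells of subset 1, so their excess in subset 1 over the other day-4 subsets is described here without a test. For Klra2, the probe with the higher mean is given unless the second probe is named.

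Classical monocytes are bone marrow derived blood cells that carry high surface Ly6C and the chemokine receptor Ccr2, leave the blood towards injured tissue and there lose Ly6C as they turn into macrophages. Muscle injury calls them in within days, and the macrophages that follow clear debris and feed regeneration. Genes switched on in the monocyte are lost at different points along that path, and resident macrophages of healthy muscle are a separate reference for what a macrophage keeps.

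Cells were sorted from tibialis anterior muscle of adult mice of 4 strains, Cx3cr1-/-Ccl2-/-, Ccl2-/-, Cx3cr1-/- and WT, all on the C57Bl/6J background, with the targeted genes disrupted in every cell and not only in phagocytes. Muscle was taken 4 days after an intramuscular injection of notexin, a myotoxic phospholipase, or left untreated. All sorted cells were CD11b+ Ly6G- NK1.1-, and on day 4 they were divided into subset 1 (F4/80low and Ly6Chigh) and subset 2 (F4/80low and Ly6Clow), and the F4/80high and Ly6Clow cells into subset 4 (Mgl1high) and subset 3 (Mgl1low), of which the last 2 were also taken from untreated muscle. Each of the 24 arrays held amplified RNA from 1 pool of 3 mice, so that the 4 strains are the replicates of a subset (n = 4) and the spread between mice of 1 strain is not measured. Values are log2 intensities on an Illumina expression array, and where 4 values of a group are listed they are those of Cx3cr1-/-Ccl2-/-, Ccl2-/-, Cx3cr1-/- and WT, in that order. In bulk RNA of sorted cells, fewer expressing cells and less RNA per cell cannot be told apart.

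The promoter windows of 4 members are shown because the results turn on these genes. Slfn1 and Slfn4 belong to 1 family on chromosome 11 and fell by different amounts. Between subsets 4 and 3, Plac8 passed as higher in subset 4 on day 4 only, and Klra2 as lower in untreated muscle only. Each window runs from 250 bases before to 50 after the annotated start in RefSeq (GRCm38.p6), 5′ to 3′ on the gene's strand. Windows were found for 6 of the 7 members, and Thbs1 is named only. Capitals mark a run of 15 bases shared by Slfn1 and Slfn4 (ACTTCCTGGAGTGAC), or a match on either strand to AANNGAAA (the core bound by interferon regulatory factors), GAGGAA (the core of PU.1) or TTGCNNAA (a C/EBP core).
Slfn1, chr11:83116570-83116869 (+): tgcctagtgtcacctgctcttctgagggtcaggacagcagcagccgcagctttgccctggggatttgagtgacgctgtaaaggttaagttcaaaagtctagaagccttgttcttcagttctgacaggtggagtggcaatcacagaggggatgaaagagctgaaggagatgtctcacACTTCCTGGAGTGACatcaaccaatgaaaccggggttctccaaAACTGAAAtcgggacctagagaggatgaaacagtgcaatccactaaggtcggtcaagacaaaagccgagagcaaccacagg
Slfn4, chr11:83174936-83175235 (+): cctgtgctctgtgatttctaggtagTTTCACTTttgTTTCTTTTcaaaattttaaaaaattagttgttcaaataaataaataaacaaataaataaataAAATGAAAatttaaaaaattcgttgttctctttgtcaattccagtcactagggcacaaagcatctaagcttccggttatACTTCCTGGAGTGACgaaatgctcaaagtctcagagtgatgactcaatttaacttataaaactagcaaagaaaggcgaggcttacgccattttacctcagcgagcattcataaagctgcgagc
Klra2, chr6:131247313-131247612 (−): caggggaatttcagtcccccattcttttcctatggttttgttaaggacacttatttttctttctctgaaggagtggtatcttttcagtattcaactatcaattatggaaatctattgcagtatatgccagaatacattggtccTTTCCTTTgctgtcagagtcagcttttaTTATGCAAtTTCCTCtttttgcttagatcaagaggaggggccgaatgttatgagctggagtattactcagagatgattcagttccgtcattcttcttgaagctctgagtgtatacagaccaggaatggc
Plac8, chr5:100572156-100572455 (−), first of 2 annotated windows: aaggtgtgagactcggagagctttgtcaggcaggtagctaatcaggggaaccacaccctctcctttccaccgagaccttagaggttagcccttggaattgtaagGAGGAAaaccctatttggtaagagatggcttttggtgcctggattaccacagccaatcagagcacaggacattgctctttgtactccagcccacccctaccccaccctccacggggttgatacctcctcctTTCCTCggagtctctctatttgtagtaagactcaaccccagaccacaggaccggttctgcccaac
The shared run lay at −74 to −60 from the start of Slfn1 and at −73 to −59 from that of Slfn4, and 2 of 32851 promoter windows held it (0.00609%). The interferon regulatory factor core was in 23.9% of all windows, the PU.1 core in 28.3% and the C/EBP core in 10.8%. Slfn4 held 3 matches to the first of these and Slfn1 1, Plac8 held 2 PU.1 cores, and Klra2 held 1 match to each of the 3. No 2 matches overlapped in these windows. A match describes letters only, and factor binding was not measured.

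The number of probes above background ran from 7054 to 18289 per array. Under 11000 probes were above background in 4 arrays: subset 2 of Cx3cr1-/-Ccl2-/-, subset 2 of Cx3cr1-/-, subset 4 on day 4 of Cx3cr1-/- and untreated subset 3 of Ccl2-/-. In those 4 arrays the lowest signal above background was 6.04 to 6.76, against 5.08 to 5.46 in the other 20, so a member that is not above background there has only an upper bound. Cx3cr1 had a median of 5.22 in the 12 arrays of strains labelled Cx3cr1-deficient (4.75 to 7.21, above background in 5), against 6.31 in the other 12 (5.05 to 7.56, above background in 9). For Ccl2 the median was 9.24 in the 12 Ccl2-deficient arrays and 8.74 in the other 12. Where the Ccl2 probe lies in the targeted gene is not known here, and its level checks no label.

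All 7 members were highest in subset 1, with means from 8.62 for Slfn1 to 10.34 for Klra2. They were lower by very different amounts in the macrophage subsets. A fall or drop here is a difference between sorted groups, and no course in time was measured. Going to subset 3 on day 4, Plac8 dropped 19.99-fold and Ly6c1 11.4-fold, whereas Slfn1 dropped 2.89-fold and Thbs1 3.46-fold. Going to subset 4, Slfn4 dropped 16.5-fold, Slpi 12.9-fold, Klra2 12.5-fold and Ly6c1 12.003-fold, whereas Plac8 dropped 3.25-fold. Some arrays of subset 4 were not above background, and with those set to the lowest signal above background on their array the drops were 12.5-fold for Slfn4, 10.02-fold for Slpi, 10.2-fold for Klra2 and 11.5-fold for Ly6c1. Of the 7 probes that represent the genes, only those of Ly6c1 and Slfn1 fell to about the same level in subsets 3 and 4. The second Klra2 probe fell 5.09-fold to subset 3 and 5.82-fold to subset 4, where 1 of its 4 arrays was above background. For all 7, every subset 1 array lay above every subset 3 and subset 4 array of day 4. The same was true of 2.77% of the 15320 probes tested, and since the members were picked on this contrast nothing is read from their count. With subset 2 added, 6 of the 7 kept that separation, all but Plac8 (1.12% of probes did), and the same 6 kept it against all 20 other arrays (0.411% of probes), where the choice of members again leaves nothing to be read from the counts. For Plac8 the overlap came only from the subset 2 arrays with few probes above background. All 7 passed the filter of a signal above background in at least 8 of the 16 day-4 arrays, and all 4 subset 1 arrays were above background for each.

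**Figure D1:**
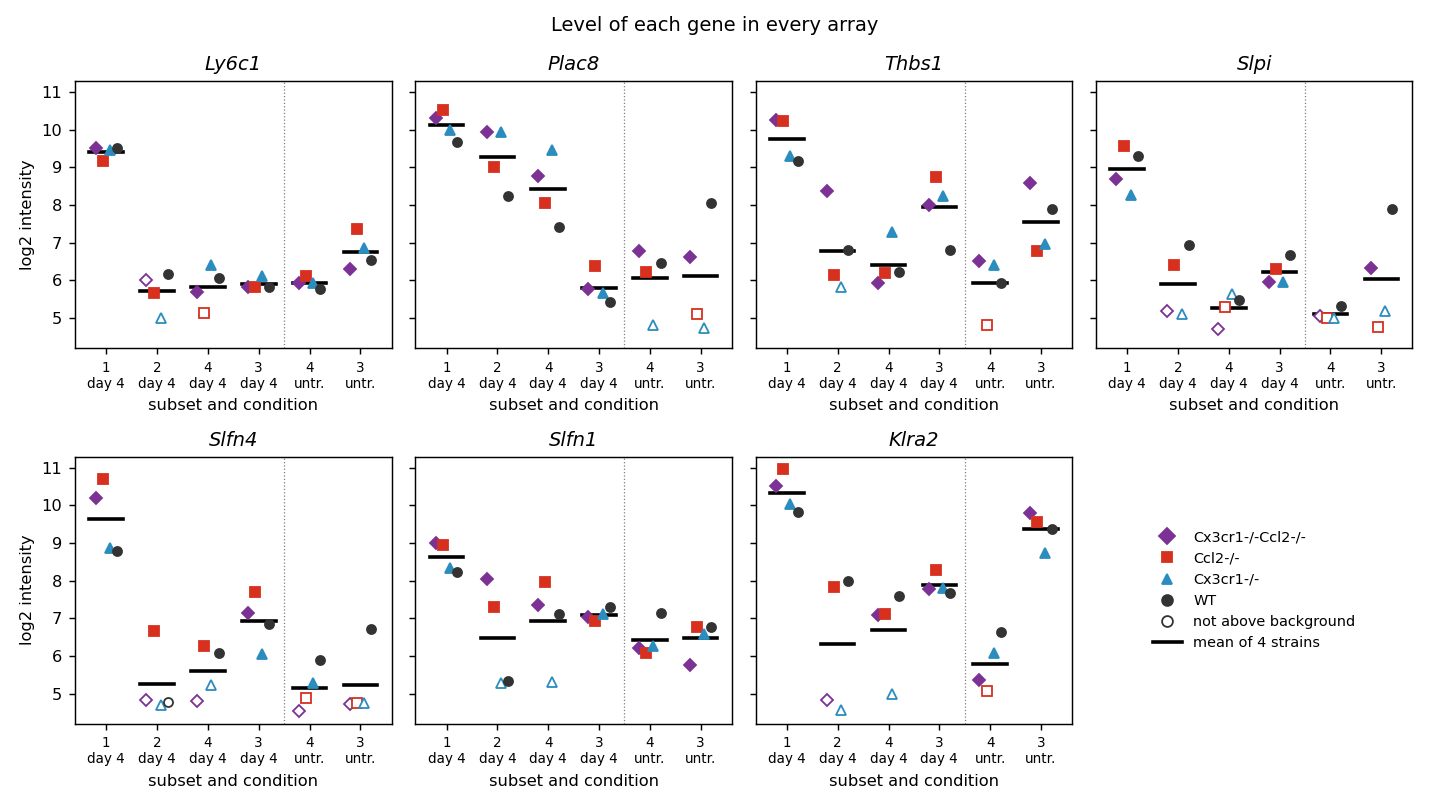
Log2 intensity of each of the 7 genes in all 24 arrays, by subset and condition (1 point per strain, open where not above background, bars for the mean of 4 strains). Subset 1 is highest for every gene, Plac8 stays high in subsets 2 and 4 on day 4, and Klra2 is high again in untreated subset 3, at 8.74 to 9.80.

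**Figure D2:**
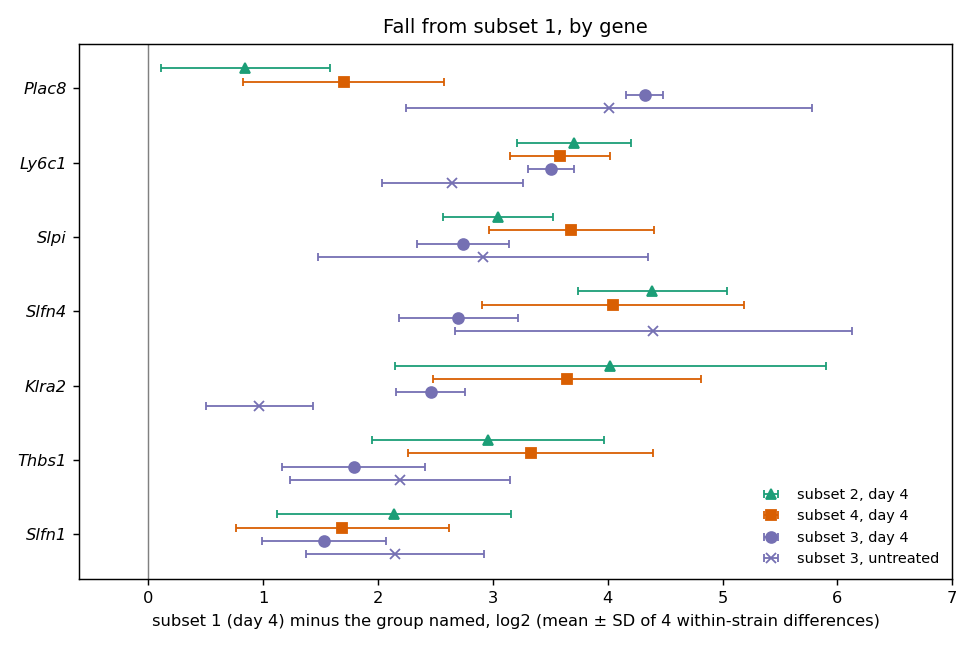
Difference between subset 1 on day 4 and the group named, in log2 units, as mean ± SD of the 4 differences within strains. Genes are ordered by their fall to subset 3 on day 4, from 1.53 for Slfn1 at the bottom to 4.32 for Plac8 at the top. Untreated muscle came from other mice than the day-4 subsets.

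Ly6c1 encodes a GPI-anchored protein that Ly6C antibodies bind, so its transcript sits closest to the gate. It stood at 9.50, 9.16, 9.45 and 9.52 in subset 1, where no other member varied less between strains (9.41 ± 0.17, SD). Subset 2 had 6.00, 5.65, 5.01 and 6.15, with 2 of the 4 not above background. Subset 4 on day 4 had 5.70, 5.13, 6.41 and 6.06, and subset 3 on day 4 had 5.83, 5.82, 6.12 and 5.83. The fall from subset 1 was 3.71 ± 0.50 log2 units to subset 2, 3.59 ± 0.43 to subset 4 and 3.51 ± 0.20 to subset 3, so the 3 Ly6C low subsets of day 4 did not differ in it beyond their spread. The array annotation lists no probe for Ly6c2, the closely related partner gene, and whether the Ly6c1 probe also reads it was not tested. In untreated muscle Ly6c1 was 5.93, 6.11, 5.93 and 5.77 in subset 4, against 6.31, 7.36, 6.85 and 6.53 in subset 3. Subset 4 lay below subset 3 in all 4 strains without overlap, but the difference of −0.83 (SE 0.28) did not pass (adjusted p = 0.0835 in limma).

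Plac8, a small cysteine-rich protein abundant in monocytes and granulocytes, was the member that parted from the rest. It had 10.32, 10.53, 10.00 and 9.67 in subset 1, and 9.94, 9.01, 9.94 and 8.24 in subset 2, where 2 arrays reached into the range of subset 1. Those 2, of Cx3cr1-/-Ccl2-/- and Cx3cr1-/-, are arrays of few detected probes. The Cx3cr1-/- array of subset 4 on day 4, the highest of that group for Plac8, is another. On day 4 it had 8.77, 8.05, 9.47 and 7.43 in subset 4, against 5.78, 6.37, 5.65 and 5.42 in subset 3. Every subset 4 array was above every subset 3 array, an order that 5.65% of probes had. The fall from subset 1 was 0.85 ± 0.74 to subset 2, 1.70 ± 0.87 to subset 4 and 4.32 ± 0.16 to subset 3, and the last had the smallest SD of the falls of any member to any group.

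Plac8 alone of the 7 differed between subsets 4 and 3 on day 4 (log2 difference 2.62, SE 0.44, 6.15-fold, adjusted p = 0.0112 in limma, higher in subset 4 in 4 of 4 strains). The day-4 arrays of subsets 2, 3 and 4 entered the choice of members, so contrasts among them are not independent of that choice. Of all 15320 probes tested, 0.268% were called for subset 4 against subset 3. The call was lost without Cx3cr1-/- (2.22, adjusted p = 0.0794), without Ccl2-/- (2.94, 0.10) and without Cx3cr1-/-Ccl2-/- (2.50, 0.315), and without background correction (1.43, 0.0566), while leaving out the 4 arrays with few probes above background kept it (2.27, 0.00144). Blocking by pool, 219 probes in place of 41 were called and Plac8 stayed the only member (adjusted p = 0.00261). Plac8 was also the only member that passed in subset 2 against the mean of subsets 3 and 4 (2.16, SE 0.38, adjusted p = 0.00161, in 4 of 4 strains), a contrast with 11.4% of probes called, and without Cx3cr1-/-Ccl2-/- that difference was 1.998 (0.0509). With the pool as a block, Slfn4 passed there too (−1.01, SE 0.31, adjusted p = 0.0405, against 0.145 without the block), although it was above background in only 1 of the 4 subset 2 arrays, and without the 4 arrays of few detected probes the difference was −0.60 (0.585). Of 5 dendritic cell markers tested, 3 passed as higher in subset 2 when set against subsets 3 and 4 averaged, and 0 of 5 differed between subsets 4 and 3 in limma. The summed intensity of the 10 markers on the array was 2379 to 7361 in subset 2 and 899 to 1329 in subset 4, against 829 to 911 in subset 1 and 518 to 722 in subset 3. Most of the sum in subset 4 came from Siglech, with a mean of 9.35 in subset 4, 9.05 in subset 1 and 8.28 in subset 3. Xcr1 was above background in no array of these 4 groups, and Ccr7, Cd209a and Flt3 in none of subsets 1 and 3. The part of such cells in the level of Plac8 was not tested.

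Thbs1 and Slpi are secreted. Thbs1, a matrix glycoprotein that binds Cd36 and Cd47 and can release active TGF-beta, had 10.25, 10.24, 9.29 and 9.17 in subset 1 and 8.37, 6.13, 5.83 and 6.79 in subset 2. On day 4 it had 5.93, 6.20, 7.29 and 6.22 in subset 4, against 8.001, 8.75, 8.23 and 6.82 in subset 3. Each strain was lower in subset 4, although the ranges overlapped, and the difference of −1.54 (95% interval −2.64 to −0.43) did not pass (adjusted p = 0.186 in limma). In untreated muscle it had 6.52, 4.80, 6.41 and 5.94 in subset 4, against 8.58, 6.77, 6.96 and 7.88 in subset 3, again lower in 4 of 4 strains and here without overlap (−1.63, SE 0.48, adjusted p = 0.0515, or 0.0435 without the strain as a block). Without the 4 arrays with few probes above background both differences passed, at −1.83 on day 4 (0.0175) and −1.86 in untreated muscle (0.0191), and scaling to 1 median called the first of them too (−2.44, 0.0286). In the same family, Thbs4, found in the matrix of tendon and muscle, averaged 8.39 in untreated subset 4, against 5.30 in untreated subset 3. Fibroblast markers had a summed intensity of 1803 to 4291 in untreated subset 4 against 582 to 788 in untreated subset 3, and muscle fibre markers 637 to 1782 against 272 to 801. Of the 6 fibroblast markers Lum was above background in no array of untreated subset 3, and of the 8 muscle fibre markers Actn3 and Ckm were not, while every one was in at least 1 array of untreated subset 4, and their part in these differences was not tested.

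Slpi, a secreted inhibitor of neutrophil elastase and other serine proteases, had 8.68, 9.57, 8.27 and 9.30 in subset 1. It had 5.19, 6.40, 5.11 and 6.93 in subset 2, and 4.71, 5.28, 5.62 and 5.47 in subset 4 on day 4, against 5.96, 6.29, 5.94 and 6.66 in subset 3 on day 4. It was above background in every subset 1 and subset 3 array of day 4, in 2 arrays of subset 2 and in 1 of subset 4. The difference of subset 4 from subset 3 was −0.94 (95% interval −1.80 to −0.09), and did not pass (adjusted p = 0.280 in limma). The measured values did not overlap, but the Cx3cr1-/- array of subset 4 gives only an upper bound of 6.19, above its subset 3 value, so the direction is known in 3 strains. Untreated subset 3 was split, with 7.88 in WT and 6.34 in Cx3cr1-/-Ccl2-/- but 5.18 and 4.75, both not above background, in Cx3cr1-/- and Ccl2-/-, while untreated subset 4 had 4.98 to 5.33 with 1 array above background. Without the 4 arrays of few detected probes, the untreated difference of subset 4 from subset 3 passed (−1.41, adjusted p = 0.0110, against −0.94 and 0.191 with them). Of its family of whey acidic protein inhibitors, Wfdc17 was 9.40 in subset 4 and 8.31 in subset 3 on day 4 and 8.03 in subset 1, the reverse of Slpi.

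Slfn4 and Slfn1 belong to the Schlafen genes, a family of mice known for interferon-induced expression and for restraining cell growth. Slfn4 had 10.19, 10.69, 8.86 and 8.79 in subset 1. It was above background in 1 array of subset 2 (6.66 in Ccl2-/-, against 4.71 to 4.83 in the others) and in 2 of subset 4 on day 4 (4.80, 6.25, 5.23 and 6.07), whereas all 4 arrays of subset 3 on day 4 were above background (7.14, 7.70, 6.04 and 6.85). The ranges overlapped, the direction in Cx3cr1-/- is unknown because its subset 4 array has only an upper bound of 6.19, above its 6.04 in subset 3, and the difference of −1.35 (95% interval −2.47 to −0.23) did not pass (adjusted p = 0.245 in limma).

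Slfn1 had the smallest measured fall of the 7 to subset 3 of day 4 (1.53 ± 0.54 log2 units, SD) and shared it with Plac8 for subset 4 (1.69 ± 0.93 for Slfn1 and 1.70 ± 0.87 for Plac8), whereas Plac8 fell less to subset 2 and Klra2 less to untreated subset 3. It had 8.99, 8.94, 8.33 and 8.23 in subset 1, and 8.05, 7.29, 5.28 and 5.33 in subset 2. It had 7.36, 7.96, 5.32 and 7.10 in subset 4 on day 4, against 7.05, 6.92, 7.10 and 7.31 in subset 3, and the lowest of these, from Cx3cr1-/-, was not above background in an array of few detected probes. The interval of the difference between subsets 4 and 3 ran from −1.39 to 1.08 around −0.16 (adjusted p = 0.899 in limma). It was above background in every array of subsets 3 and 4 but that one, in injured and untreated muscle, at group means of 6.43 to 7.09, where Slfn4 had 5.15 to 6.93.

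Of the Schlafen family, 8 of 9 genes had a probe and 6 a probe above background in at least 4 arrays. Slfn2, known in mice for keeping lymphocytes quiescent, varied little between the day-4 subsets, at 8.27 in subset 1, 8.05 in subset 2, and 7.76 and 7.56 in subsets 4 and 3 on day 4. Slfn5 had the same order of the day-4 subsets as Slfn4, with 7.50 in subset 1, 5.79 in subset 2, 6.01 in subset 4 and 6.74 in subset 3 on day 4. Slfn9 averaged 6.21 in subset 1, 5.89 in subset 2, 6.18 in subset 4 and 5.79 in subset 3, and Slfn3 had means of 5.06 to 5.60 in all groups.

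Klra2, which encodes the lectin-like inhibitory receptor Ly49B of myeloid cells, was the member that fell least from subset 1 to untreated subset 3. The fall was 1.95-fold for the first probe and 3.03-fold for the second. In untreated muscle it had 5.36, 5.06, 6.08 and 6.64 in subset 4, against 9.80, 9.56, 8.74 and 9.37 in subset 3. These groups did not overlap, and the highest array of untreated subset 3 came close to the lowest of subset 1, which had 10.51, 10.97, 10.05 and 9.82. Untreated subset 4 was 11.99-fold below untreated subset 3 (log2 difference −3.58, SE 0.44, adjusted p = 2.44e-04 in limma, lower in 4 of 4 strains), the only call among the 7 in a contrast with 8.17% of probes called. The second probe, with 4.71, 4.83, 4.81 and 4.82 in subset 4 and none above background, and 6.30, 6.10, 5.68 and 5.70 in subset 3, gave a signal at least 1.71-fold higher in subset 3 (−1.16, SE 0.24, adjusted p = 0.00798).

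The difference of untreated subset 4 from untreated subset 3 kept its call for the first Klra2 probe when each strain was left out (−3.89 to −3.28, adjusted p from 1.62e-04 to 0.0108). Of 7 NK cell markers on the array, Eomes, Gzmb, Ncr1 and Nkg7 were above background in no array of either untreated subset, and the summed intensity of the 7 was 1631 to 2134 in subset 4, against 1633 to 2257 in subset 3. Most of that sum was Prf1, with means of 10.71 in subset 4 and 10.68 in subset 3. The Klrk1 probe with the higher signal averaged 4.68 in untreated subset 4 and was above background in none of its 4 arrays, against 6.12 and 3 of 4 in untreated subset 3, and its part in the result was not tested. The summed intensity of 5 eosinophil markers was 129 to 142 in untreated subset 4, against 186 to 453 in untreated subset 3. Of them, Siglecf averaged 5.01 in untreated subset 4 and 7.14 in untreated subset 3. Epx, Il5ra and Prg2 were above background in no array of untreated subset 4, and Ccr3 in none of either. The part of such cells in the result was not tested. Of 8 Ly49 genes with a probe above background in at least 4 arrays, Klra2 was the only one with a mean over 6 in subset 1 or in untreated subset 3. Klra17 reached 8.49 in subset 2 and 5.18 or less elsewhere, and Klra3, Klra4, Klra5, Klra7, Klra9 and Klra16 had means of 4.64 to 5.94 in all groups.

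On day 4 the gap between the macrophage subsets in Klra2 was smaller. It had 7.10, 7.10, 4.98 and 7.58 in subset 4, against 7.77, 8.29, 7.79 and 7.67 in subset 3, with the single value not above background from the Cx3cr1-/- array of few detected probes. Subset 2 held 2 arrays near 8 (Ccl2-/- at 7.84 and WT at 8.002) and 2 not above background (Cx3cr1-/-Ccl2-/- at 4.84 and Cx3cr1-/- at 4.56), and this last pair are also arrays of few detected probes. The difference of subset 4 from subset 3 on day 4 was −1.19 (95% interval −2.67 to 0.30, adjusted p = 0.406 in limma). The second probe gave −0.19 (adjusted p = 0.810 in limma), with 1 of 4 subset 4 arrays above background.

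The comparison of injured with untreated muscle asked which of these genes changed in the macrophage subsets themselves. Its untreated arrays did not enter the choice of members, but its day-4 arrays of subsets 3 and 4 did. Averaged over subsets 3 and 4, Slfn4 was the only member that passed (log2 difference 1.07, SE 0.28, adjusted p = 0.0216 in limma, measured higher on day 4 in 4 of 4 strains), in a contrast with 11.8% of probes called. It was above background in 6 of 8 arrays on day 4 and in 3 of 8 untreated arrays, so the size of the difference rests partly on values below detection. The call was lost without Ccl2-/- (0.71, adjusted p = 0.174), without Cx3cr1-/-Ccl2-/- (0.98, 0.132) and with the subsets of a pool averaged first (1.07, 0.0743). Ly6c1 differed by −0.49 (lower on day 4 in 4 of 4 strains, 0.135), Plac8 by 1.02 (higher in 3 of 4, 0.161) and Slfn1 by 0.56 (higher in 3 of 4, 0.251, or 0.89 and 0.00930 without the 4 arrays of few detected probes). Thbs1 (0.45), Slpi (0.17) and Klra2 (−0.29) had intervals that spanned 0.

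The change on day 4 differed between the subsets for Klra2: it was 2.40 log2 units more positive in subset 4 than in subset 3 (SE 0.62, adjusted p = 0.0372 in limma, in 3 of 4 strains, with 7.66% of probes called). This call held without Cx3cr1-/- (3.24, 0.0446) and without the 4 arrays of few detected probes (2.82, 0.00920), and was lost on leaving out WT (2.31, 0.0818), Ccl2-/- (2.09, 0.127) or Cx3cr1-/-Ccl2-/- (1.94, 0.205). The second probe gave 0.96 (adjusted p = 0.0849) and Plac8 gave 2.67 (0.0705), both positive in 4 of 4 strains. Slfn4 gave −1.26 (0.149).

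Taken in each subset separately, a choice made after the values were seen, subset 3 had less Klra2 and more Slfn4 on day 4. Klra2 in subset 3 was 7.77, 8.29, 7.79 and 7.67 on day 4 and 9.80, 9.56, 8.74 and 9.37 in untreated muscle (−1.49, SE 0.44, adjusted p = 0.0343 in limma), without overlap, and the second probe fell as well (−0.75, 0.0489). Slfn4 in subset 3 was 7.14, 7.70, 6.04 and 6.85 on day 4 and 4.73, 4.75, 4.75 and 6.71 in untreated muscle (1.70, SE 0.39, adjusted p = 0.0106), where WT hardly differed and the other 3 strains were not above background. Ly6c1 in subset 3 was lower on day 4 in every strain (−0.86, SE 0.28, adjusted p = 0.0492). Its gap was widest in Ccl2-/- (5.82 against 7.36), whose untreated array is one of few detected probes. In this contrast 15.6% of probes were called.

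In subset 4, Plac8 was the member that passed, with 8.77, 8.05, 9.47 and 7.43 on day 4 and 6.78, 6.22, 4.82 and 6.45 in untreated muscle (log2 difference 2.36, SE 0.62, 5.14-fold, adjusted p = 0.0488 in limma, 3.97% of probes called). Every day-4 array lay above every untreated array of subset 4. The gap was widest in Cx3cr1-/-, whose untreated value was not above background and whose day-4 array is one of few detected probes. The size of the difference rests partly on that pair. In subset 3, Plac8 showed no such order, at 5.78, 6.37, 5.65 and 5.42 on day 4 and 6.60, 5.09, 4.73 and 8.04 in untreated muscle, where the WT array was the highest of all macrophage arrays outside subset 4 of day 4.

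**Figure D3:**
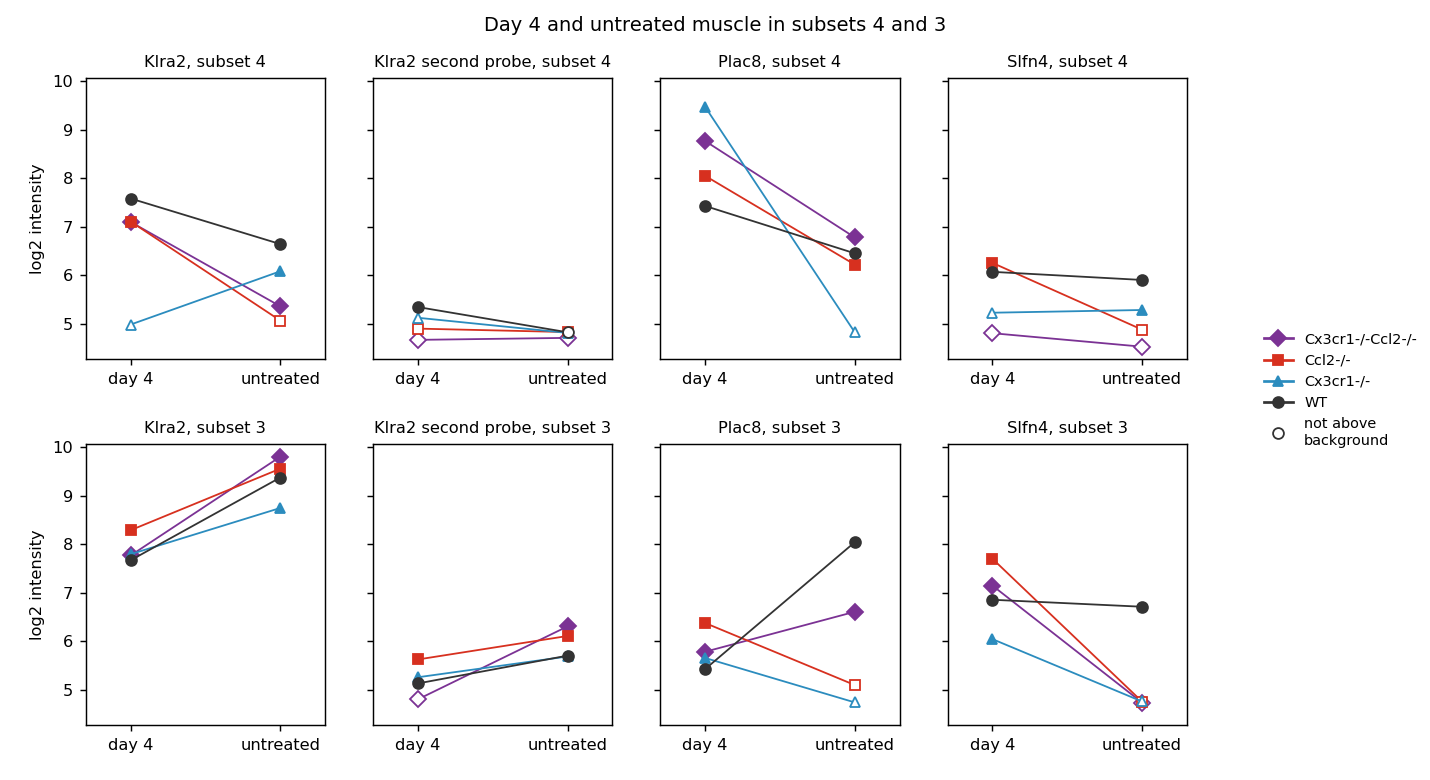
Log2 intensity of Klra2 (both probes), Plac8 and Slfn4 on day 4 and in untreated muscle, in subset 4 (top) and subset 3 (bottom). Lines join the arrays of 1 strain, which come from different mice at the 2 conditions, and open points are not above background. Klra2 is lower on day 4 in every strain of subset 3, and Plac8 is higher on day 4 in every strain of subset 4.

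Within subset 1 the strains were not alike. Slfn4 stood at 10.19 (Cx3cr1-/-Ccl2-/-) and 10.69 (Ccl2-/-) in the Ccl2-deficient pair, against 8.86 (Cx3cr1-/-) and 8.79 (WT). Thbs1 had 10.25 and 10.24 in the arrays labelled Ccl2-deficient, against 9.29 and 9.17 in the other 2, and Slfn1 had 8.99 and 8.94 against 8.33 and 8.23. Both Ccl2-deficient arrays were above both others for 5 of the 7 members, with a gap of 1.33 log2 units for Slfn4, 0.95 for Thbs1, 0.61 for Slfn1, 0.46 for Klra2 and 0.32 for Plac8, but not for Ly6c1 or Slpi. Of 11899 probes above background in all 4 arrays, 26.9% had that order. A gap of at least 0.5 was found for 3 of the 7, against 4.38% of probes. The 5 genes kept this order under the other 3 scalings tried.

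These arrays are 1 pool each, and the comparison of subset 1 alone was chosen after its values were seen. Slfn4 passed there (1.62, SE 0.24, adjusted p = 0.0322 in limma, n = 2 against 2 arrays), as did the second Klra2 probe (1.64, SE 0.22, adjusted p = 0.0243), whereas the first Klra2 probe gave 0.81 (0.127), Thbs1 1.01 (0.0590), Slfn1 0.69 (0.129) and Plac8 0.59 (0.199). Of the probes tested, 1.67% were called. More probes were above background in the 2 Ccl2-deficient arrays (16445 and 16392) than in the other 2 (14135 and 15437), and the part of this in the result was not tested. All 13 interferon response genes tested were higher in the Ccl2-deficient arrays of subset 1 (median 0.75, against 0.01 over all probes), and 2 of them passed, Cxcl10 (1.51, SE 0.25, adjusted p = 0.0378) and Mx1 (1.17, SE 0.23, 0.0486). Of 15 mature macrophage genes tested there, 3 were lower and 0 higher in limma, 4 had a positive difference and the median was −0.61, and their part in the strain difference was not tested. Over all 4 subsets together no member differed by Ccl2 deficiency, where 0.0718% of probes were called: Slfn4 was 0.87 higher (95% interval 0.32 to 1.42, adjusted p = 0.200) and Slfn1 1.07 higher (0.35 to 1.79, 0.218), each in 3 of 4 subsets. Each strain is 1 pool, so these intervals and p-values measure how alike the difference was across subsets, not the spread between mice.

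By Cx3cr1 deficiency, where 0.0326% of probes were called, no member passed either. Here too the intervals and p-values measure likeness across subsets, not the spread between mice. Klra2 was lower on average in the Cx3cr1-deficient strains in all 4 subsets (−1.21, 95% interval −2.10 to −0.32, adjusted p = 0.135 in limma). Even so, Cx3cr1-/- lay above WT in subset 1 (10.05 against 9.82) and subset 3 (7.79 against 7.67). The measured values of Slpi (−0.80, 0.132) and Slfn4 (−0.75, 0.135) were lower on average too. For Klra2, Slpi and Slfn4 alike, several Cx3cr1-deficient arrays were not above background. The second Klra2 probe gave −0.36 (adjusted p = 0.388 in limma). Plac8 was higher in 3 of 4 subsets (0.64, 0.153). Of the 4 arrays with few probes above background, 3 are Cx3cr1-deficient day-4 arrays, and without them the difference of Klra2 was −0.20 and that of Plac8 0.16. Scaling the arrays to 1 median instead gave a median of −0.58 over all probes, against −0.15 here, and called Klra2, Slpi and Slfn4 and turned Plac8, Ly6c1 and Thbs1 negative.

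**Figure D4:**
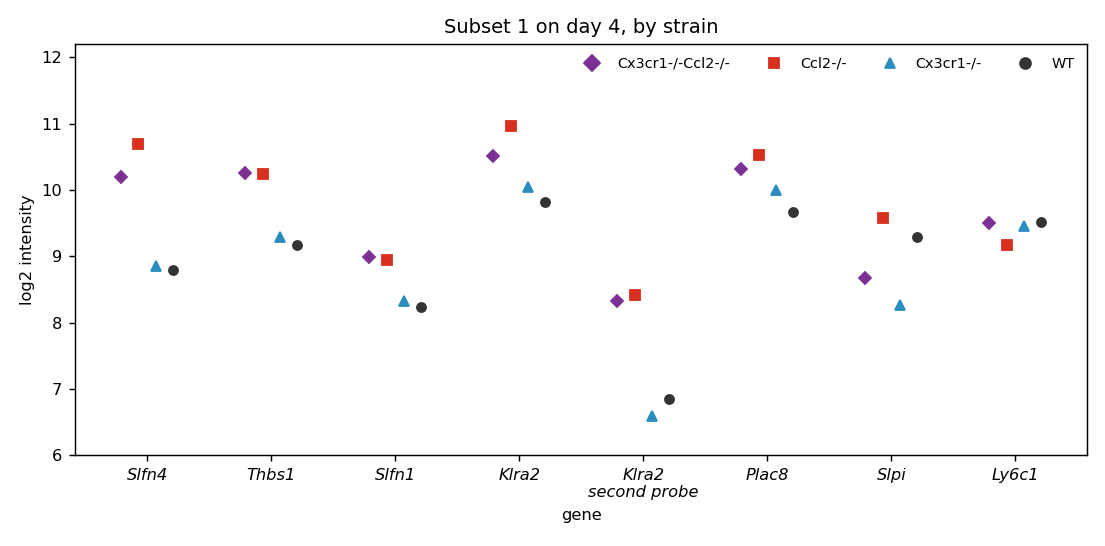
Log2 intensity in the 4 subset 1 arrays of day 4, 1 point per strain. For Slfn4, Thbs1, Slfn1, both Klra2 probes and Plac8, the 2 Ccl2-deficient arrays lie above the other 2, with a gap of 1.33 for Slfn4, and for Slpi and Ly6c1 they do not.

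Other genes known from classical monocytes were set beside the members, from a list of 25 of which 21 had a probe above background in at least 4 arrays. In subset 1 against the mean of subsets 3 and 4 on day 4, 16 of the 20 that were tested were higher, with a median of 0.80 against 0.06 over all probes and 3.05 for the 7 members, again as a description. As examples chosen after their values were seen, Ccr2, the receptor that draws monocytes out of the marrow, had 8.03 in subset 1 and 5.96 to 6.11 in the other day-4 subsets, and Vcan, a matrix proteoglycan, had 8.26 against 4.90 to 5.39. F13a1, a transglutaminase subunit listed for monocytes, went the other way, with 9.14 in subset 1, 5.16 in subset 2, 10.77 in subset 4 and 8.50 in subset 3. Of 17 genes of mature macrophages, 2 were higher in subset 1, with a median of −1.08. Of 12 neutrophil markers on the array, 8 were above background in no subset 1 array, S100a8, Camp and Ngp among them. Csf3r was above background in all 4 subset 1 arrays (mean 6.48), and S100a9, Elane and Lcn2 in at least 1. The part of such cells in subset 1 was not tested.

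On day 4, F13a1 was the single gene of that list that differed between subsets 4 and 3 (2.27, SE 0.34, adjusted p = 0.00355 in limma, 1 of 20 tested), and under scaling to 1 median 3 others were lower and it did not pass. In untreated muscle 7 of 19 differed, where 8.17% of all probes did, 3 higher in subset 4 (F13a1, Irf8 and Klf4) and 4 lower, or 3 and 2 under scaling to 1 median. The 4 lower ones were Fn1 (−2.18, SE 0.34, adjusted p = 0.00118), Ccr2 (−2.02, SE 0.28, 5.38e-04), Plbd1 (−1.31, 0.0115) and Ifitm6 (−1.20, 0.00895), which moved the same way as Klra2. In subset 3 these 4 were also among the 6 genes lower on day 4 than in untreated muscle, against 5 higher: Ifitm6 fell by 3.29, Fn1 by 2.48, Ccr2 by 1.80 and Plbd1 by 1.59 (adjusted p from 3.27e-06 to 0.00243 in limma). The 2 contrasts share the untreated subset 3 arrays. Chil3 (2.53, adjusted p = 0.0272) and Irf8 (2.31, 1.39e-04) led the 5 higher ones. Of 11 interferon response genes tested in subset 3, 8 were higher on day 4 and 2, Isg15 and Cxcl10, were lower, with a median of 1.43 against 0.10 over all probes. Ifit2 was the most changed of them (3.77, SE 0.40, adjusted p = 2.98e-05), and of the Schlafen family Slfn4 and Slfn5 (1.66, 0.00294) were higher and Slfn2 lower (−0.76, 0.0264).

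Over all 24 arrays, the members were not interchangeable with each other. Pearson's r between members ran from 0.11 for Plac8 and Klra2 to 0.87 for Slfn4 and Slpi, given here as a description of arrays that share pools and subsets. Among 10775 other genes, Klra2 was most like Ccr2 (0.90), Zfp608 (0.89) and Clec4e (0.88). Slfn4 was most like N4bp1 (0.93), Gm5150 (0.91) and Ms4a4c (0.89), and Slpi most like AI504432 (0.88), Slfn4 (0.87) and Acod1 (0.85). Ly6c1 was most like Hp (0.87), Arhgef37 (0.86) and Cd177 (0.82), and Thbs1 most like Smox (0.86), Clec4e (0.82) and AI504432 (0.80). Slfn1 was most like Atf7ip (0.86), Tent4a (0.83) and Cd177 (0.81). Plac8 shared no close neighbour with any other member, being most like Phf11a (0.87), Psme1 (0.83) and Helz2 (0.80).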

How the data were processed

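RNA of sorted cells was amplified (Ovation Pico WTA V2) by the authors and hybridised to Illumina MouseWG-6 v2 arrays, 1 array per pool. The authors deposited non-normalized signal intensities from GenomeStudio (version not given in the sources used here) with a detection p-value per probe and array, and processed intensities that differ from quantile-normalized signals by at most 0.0276 on the log2 scale and were used as an alternative. Here the signals were background-corrected and quantile-normalized over 24 arrays with neqc in limma 3.58.1 (R 4.3.3, offset 16) and put on the log2 scale. A probe was above background at a detection p-value under 0.05, and entered a fit of 16 arrays if 8 or more of them passed this. For each gene the probe with the highest mean among those above background in at least 4 of 24 arrays was used. Contrasts were fitted with lmFit and eBayes across all tested probes, with Benjamini-Hochberg adjustment and a threshold of 0.05, and every adjusted p is from limma. The contrast and strain fits were run on simulated arrays with known changes. Noise there was drawn independently for each array, so the simulation does not cover the likeness of arrays from 1 pool.

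Gene names came from the platform annotation: 34885 probes carry 1 symbol, 18 several and 10378 none. Precision is limited by the number of arrays, with the 4 strains as replicates of a subset. In the fits of Ccl2 and Cx3cr1 deficiency over all day-4 subsets, the subsets of a pool stand in for replicates. Subsets of a strain and condition came from 1 pool. In day-4 fits the pool was an alternative block. In fits with untreated arrays the strain was the block, which joins day-4 and untreated pools of different mice, so pools were not blocked there. Deviations from group means had a median correlation of 0.164 over 28 same-pool pairs (−0.00345 to 0.437), against −0.0628 over 84 pairs of other strains.

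The members and gene lists were chosen with earlier results of these data known. Beside the members and their families, up to 4 genes per list with the largest differences among those that passed are named, and Plbd1, Klf4, Isg15 and, in part, Ccr2 and Ifitm6 were added after their values were seen. As alternatives, background correction or the filter was omitted, arrays were scaled to 1 median, the processed intensities were used, and fits were repeated leaving out each strain or the 4 arrays of few detected probes, and with other blocks. The contrasts of 1 subset alone were added after the values were seen.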

Additional observations from a re-analysis of the deposited data

Results flagged for a closer look

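Of 48 groups of 4 arrays checked for an array far from the others, 4 had one, and chance alone gives about 1 in 20. Ly6c1 in subset 3 on day 4 was 6.12 in Cx3cr1-/-, against 5.82 to 5.83 in the other 3 strains. Slfn4 in subset 2 was 6.66 in Ccl2-/-, against 4.71 to 4.83 in the other 3, which were not above background, 2 of them on arrays whose lowest detected signals were 6.04 and 6.76. Slfn4 in untreated subset 3 was 6.71 in WT, against 4.73 to 4.75 in the other 3, which were not above background. The second Klra2 probe in untreated subset 4 was 4.71 in Cx3cr1-/-Ccl2-/-, against 4.81 to 4.83 in the other 3, with none of the 4 above background.

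The difference between day 4 and untreated muscle was not the same in the 2 macrophage subsets for Klra2, by a test of that difference (2.40 log2 units, adjusted p = 0.0372 in limma).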

How the results depend on the processing

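Signals near background limit the low groups, and each strain gave 1 pool per group. Between subsets 4 and 3 on day 4, the 41 probes and 1 member called became 103 and 0 without background correction and with the processed values, 722 and 2 under scaling to 1 median, 120 probes without the filter, 718 and 2 without the 4 arrays of few detected probes, and 219 probes with the pool as a block. Leaving out 1 strain gave 15 to 41 probes and 0 to 1 members. For subset 2 against subsets 3 and 4 (1741 probes, 1 member), the block gave 2 members and leaving out 1 strain gave 381 to 1257 probes and 0 to 1 members. For day 4 against untreated (1851, 1), scaling to 1 median gave 1181 probes, no filter 0 members, leaving out the 4 arrays 2 members, 1 value per pool 994 probes and 0 members, and leaving out 1 strain 868 to 1528 probes and 0 to 1 members. For the difference of these differences (1197, 1), scaling to 1 median gave 7246 probes, no filter 774 and 0 members, leaving out the 4 arrays 2 members, and leaving out 1 strain 19 to 559 probes and 0 to 1 members. For untreated subsets 4 and 3 (1277, 1), leaving out the 4 arrays gave 3 members, no block 2, and leaving out 1 strain 452 to 1205 probes and 1 to 2 members. By Ccl2 deficiency (11, 0), 74 probes were called without background correction and with the processed values, 5 under scaling to 1 median, 501 without the 4 arrays, and 0 to 58 when leaving out 1 subset. By Cx3cr1 deficiency (5, 0), scaling to 1 median called 7587 probes and 3 members, and leaving out 1 subset gave 0 to 1 probes. All 7 members, or 6 under scaling to 1 median, had subset 1 arrays above those of subsets 3 and 4. Calls of Slfn4 in subset 2 and Thbs1 in untreated muscle were the only ones changed by adding or removing the block. This was the pool in day-4 fits and the strain in fits with untreated arrays. The causes were not tested.

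Scaling to 1 median moved the median over all probes to −0.83 (from −0.19) for subsets 4 and 3 on day 4, −0.51 (from −0.14) for subset 2, 0.10 (from 0.00) for day 4, −1.16 (from −0.26) for the difference of differences, 0.32 (from 0.05) for untreated subsets and −0.58 (from −0.15) for Cx3cr1 deficiency. The share of calls that were higher was then 5.96% (85.4% in the report), 6.95% (31.6%), 58.8% (44.2%), 2.68% (39.6%), 88.5% (66.6%) and 0.343% (20%) in the same order, and 60% (36.4%) for Ccl2 deficiency. For subsets 4 and 3 on day 4 it was 69.9% without background correction and 50.8% without the filter, for the difference of differences 26.1% without the filter, and for Ccl2 deficiency 59.5% without background correction.

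Values that changed sign had not passed in the report. Without the 4 arrays, Slfn1 was 0.38 for subset 4 minus subset 3 on day 4, 0.33 for the difference of differences and 0.059 for untreated subset 4 minus subset 3, Ly6c1 was 0.14 and Klra2 0.35 for subset 2, Slpi was −0.21 and Klra2 0.030 for day 4 minus untreated, and Slpi was 0.00094 for Ccl2 deficiency. Under scaling to 1 median, Slpi was −0.036 for subset 2, Ly6c1 −0.23, Thbs1 −1.20 and Slpi −0.48 for the difference of differences, Plac8 0.047 and Slfn1 0.35 for the untreated subsets, and Ly6c1 −0.31, Plac8 −0.13 and Thbs1 −0.26 for Cx3cr1 deficiency. The difference of differences was −0.057 for Thbs1 and 0.011 for Slfn1 without background correction, and −0.058 and 0.0097 with the processed values. Leaving out 1 strain, subset 4 minus subset 3 on day 4 ran from −0.20 to 0.13 for Ly6c1 and −0.56 to 0.38 for Slfn1. Subset 2 ran from −0.29 to 0.21 for Ly6c1, −1.002 to 0.11 for Thbs1 and −0.067 to 0.44 for Slpi. Day 4 minus untreated ran from −0.068 to 0.35 for Slpi. The difference of differences ran from −0.33 to 0.32 for Thbs1, −0.72 to 0.34 for Slfn1 and −0.0069 to 0.42 for Slpi. The untreated subsets ran from −0.44 to 0.46 for Plac8 and −0.21 to 0.17 for Slfn1. Leaving out 1 subset, Ccl2 deficiency ran from −0.12 to 0.58 for the second Klra2 probe, and Cx3cr1 deficiency from −0.038 to 0.25 for Ly6c1 and −0.39 to 0.13 for Slfn1.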
